A study of Mus musculus with 8 samples.

Results

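The neuregulins, the ligands related to epidermal growth factor (EGF) and the ErbB receptors were described in the RNA sequencing of P3 cortex. The members were the genes whose Ensembl identifier maps to Nrg1, Nrg2, Nrg3, Nrg4, Hbegf, Tgfa, Egfr, Erbb2, Erbb3 or Erbb4, which gave 10 of the 48709 genes listed. There were 6 ligands and 4 receptors, and 10 of 10 passed the filter on low counts.

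The mutant group held 4 dcKO_hGFAP-Cre mice (BAF155 fl/fl; BAF170 fl/fl; hGFAP-Cre pos/+) and the comparison group 4 control mice, all at postnatal day 3 on a C57BL/6J background. The methods of the study give the controls as BAF155 fl/+; BAF170 fl/+ mice that also carry Cre, whereas the sample titles call them WT. In hGFAP-Cre mice a human GFAP promoter drives Cre recombinase in radial glia of the dorsal telencephalon, whereas cortical interneurons and microglia come from other origins. BAF155 and BAF170 are scaffolding subunits of the BAF chromatin remodelling complex.

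ErbB receptors are receptor tyrosine kinases that work in pairs. EGFR binds EGF, TGF-alpha and HB-EGF, ErbB3 and ErbB4 bind neuregulins, ErbB2 has no known soluble ligand and serves as a partner of the others, and ErbB3 has very weak kinase activity of its own. In the developing cortex ErbB4 is known from interneurons, ErbB3 from the oligodendrocyte lineage, and EGFR from late progenitors and glial precursors, while most ligands are made as membrane proteins that proteases release.

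Total counts per sample were 21126713 to 31805395 in control and 22002784 to 32110285 in dcKO_hGFAP-Cre cortex, and expression is given in CPM, the count of a gene scaled to a common library total by the TMM method. The deleted genes were lower in the mutants, with log2 fold changes of -0.97 for Smarcc1, encoding BAF155 (SE 0.08, adjusted p = 5.44e-06, edgeR), and -0.77 for Smarcc2, encoding BAF170 (SE 0.08, adjusted p = 2.28e-05, edgeR). Some libraries stood apart. The summed level of 7 choroid plexus markers was 625 and 1191 CPM in dcKO_hGFAP-Cre replicates 1 and 2. It was 24.1 and 8.54 CPM in dcKO_hGFAP-Cre replicates 3 and 4 and 4.38 to 13.9 CPM in control. The summed level of 8 astrocyte markers was 1157 CPM in dcKO_hGFAP-Cre replicate 3, 381 to 452 CPM in the other mutants and 844 to 939 CPM in control. Mitochondrial genes took 2.06 to 3.23% of counts in control and 3.57 to 5.47% in dcKO_hGFAP-Cre cortex (exact two-sided permutation test, p = 0.0286, n = 4 against 4), and the part of these differences in the results below was not tested.

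Of the 10 members, 3 were lower in dcKO_hGFAP-Cre cortex (Nrg3, Hbegf and Erbb2), 3 were higher (Nrg4, Tgfa and Erbb4) and 4 did not pass the test (Nrg1, Nrg2, Egfr and Erbb3), at an adjusted p under 0.05 in edgeR's quasi-likelihood test. Among all 16525 genes tested, 37.5% passed, 18.9% as lower and 18.6% as higher, so a count of 6 among 10 is to be read against a background in which more than 1 gene in 3 passed. The groups did not overlap for 4 members (Nrg3, Nrg4, Hbegf and Erbb2), and they did not overlap for 34.4% of all genes tested. The median log2 fold change of the members was -0.27, beside 0.02 over all genes tested. With library totals in place of TMM, which moved the median of all genes from 0.024 to 0.146 and the calls over all genes from 3128 lower and 3074 higher to 2102 lower and 4584 higher, 2 members were lower and 4 were higher, because Erbb2 was no longer called and Egfr was called. No member changed direction under this scaling.

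**Figure D1:**
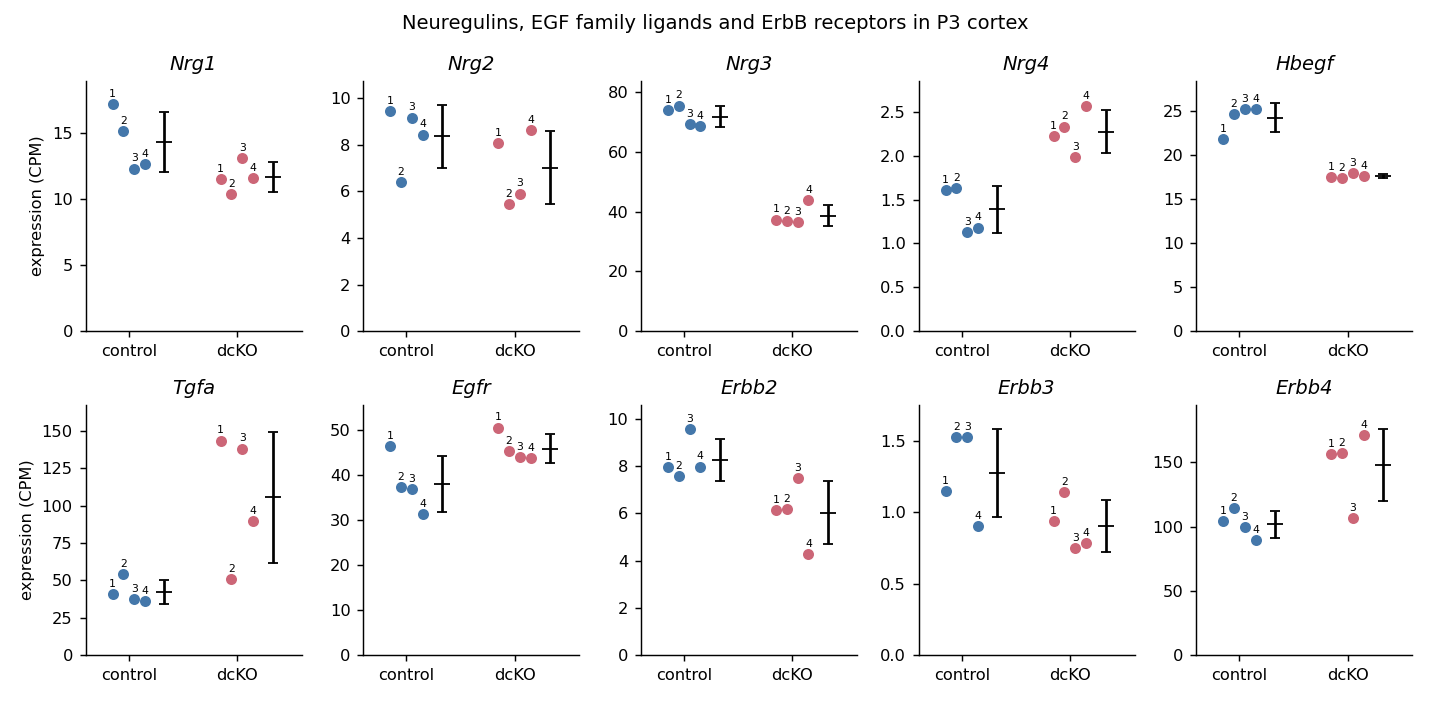
Expression of the 10 members in CPM (vertical axes, each starting at 0) in the 4 control (blue) and 4 dcKO_hGFAP-Cre (red) cortices, with numbers marking the replicates and black bars the mean ± SD. All mutants lie below all controls for Nrg3, Hbegf and Erbb2 and above them for Nrg4, and the Tgfa and Erbb4 panels each show 1 mutant within the control range.

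**Figure D2:**
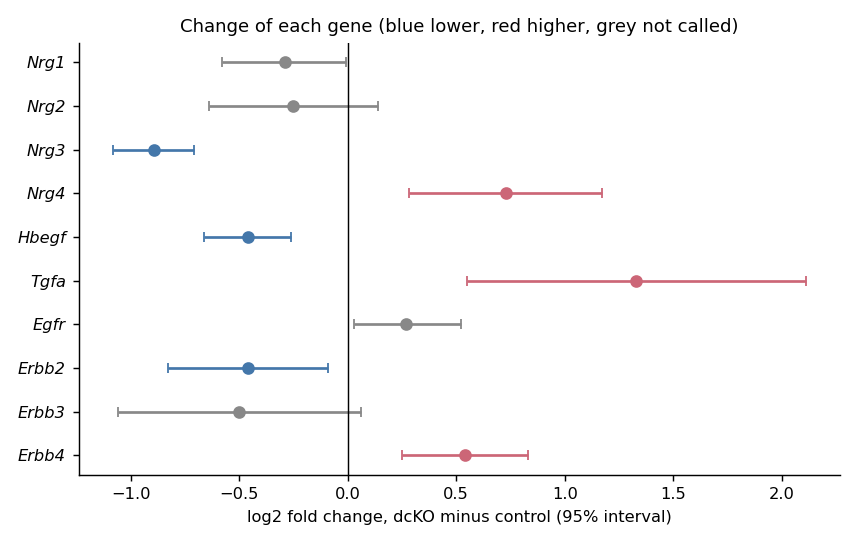
Log2 fold change of each member, dcKO_hGFAP-Cre against control (horizontal axis), as a point with its 95% interval, blue where lower, red where higher and grey where the test was not passed. Estimates range from -0.89 for Nrg3 to 1.33 for Tgfa, and the interval of Tgfa is the widest.

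Nrg3, a neuregulin that binds ErbB4 and is made mainly by neurons, showed the smallest adjusted p of the members (mm10, chr14:38368952-39473088, minus strand, ENSMUSG00000041014). It was measured at 73.9, 75.5, 69.2 and 68.6 CPM in control replicates 1 to 4 and at 37.3, 36.9, 36.6 and 43.8 CPM in dcKO_hGFAP-Cre replicates 1 to 4. Every mutant was far below every control, and the spread within each group was small. The means were 71.8 ± 3.39 CPM in control and 38.7 ± 3.43 CPM in the mutants (SD, n = 4), a log2 fold change of -0.89 (SE 0.09, 95% interval -1.08 to -0.71, adjusted p = 1.23e-05, edgeR). In bulk tissue, fewer cells of a type and less RNA per cell cannot be told apart. Within sequencing lanes the log2 ratio of mutant to control was -1.01 in lane 5, -0.92 in lane 6 and -0.65 in lane 7, of which lanes 6 and 7 held 1 sample per group. Without dcKO_hGFAP-Cre replicates 1 and 2 the log2 fold change was -0.84 (adjusted p = 0.00176, edgeR). No exon of Nrg3 overlaps an exon of another annotated gene.

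Cortical excitatory neuron markers moved with Nrg3, 8 of 9 being lower in dcKO_hGFAP-Cre cortex with a median log2 fold change of -1.0. Their summed level was 1674 to 1910 CPM in control and 779 to 962 CPM in the mutants, none was at 0, and the marker with the most counts, Neurod6, a transcription factor of these neurons, had a log2 fold change of -2.04. Set against the mean log2 level of this list, a comparison chosen after the values were seen and therefore not tested, log2 Nrg3 minus the list was -1.09 ± 0.17 in control and -0.79 ± 0.09 in mutants (SD, n = 4). In these samples Nrg3 thus differed less between the groups than the mean of the list did.

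Nrg1, the neuregulin with the widest set of known roles, binding ErbB3 and ErbB4, was at 17.2, 15.2, 12.3 and 12.7 CPM in control and 11.5, 10.4, 13.1 and 11.6 CPM in the mutants (mm10, chr8:31814551-32884029, minus strand, ENSMUSG00000062991). The groups overlapped, since dcKO_hGFAP-Cre replicate 3 was above 2 of the controls. The log2 fold change was -0.29 (SE 0.13, 95% interval -0.58 to -0.01, adjusted p = 0.0997, edgeR), which did not pass the test, and the lane ratios were of both signs. A lincRNA on the opposite strand, Gm26578, shares 482 of the exon bases of Nrg1 (4.66%), and the strand setting of the counting is not given in the sources used here.

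Nrg2, which also binds ErbB3 and ErbB4, was at 9.43, 6.41, 9.16 and 8.43 CPM in control and 8.08, 5.47, 5.90 and 8.63 CPM in the mutants (mm10, chr18:36017652-36197380, minus strand, ENSMUSG00000060275). Each group held both high and low samples, and their ranges overlapped widely. The log2 fold change was -0.25 (SE 0.18, 95% interval -0.64 to 0.14, adjusted p = 0.288, edgeR).

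Nrg4, a neuregulin specific for ErbB4, was higher in dcKO_hGFAP-Cre cortex but rested on few counts (mm10, chr9:55220222-55326844, minus strand, ENSMUSG00000032311). It was at 1.61, 1.63, 1.13 and 1.18 CPM in control and 2.22, 2.33, 1.98 and 2.57 CPM in the mutants, from 33 to 35 counts per control and 52 to 85 per mutant. All mutants were above all controls. The means were 1.39 ± 0.269 CPM and 2.27 ± 0.244 CPM (SD, n = 4), a log2 fold change of 0.73 (SE 0.21, 95% interval 0.28 to 1.17, adjusted p = 0.0155, edgeR). The call was lost without control replicate 3 (log2 fold change 0.63, adjusted p = 0.0582), without control replicate 4 (0.65, adjusted p = 0.055) and without dcKO_hGFAP-Cre replicates 1 and 2 (0.73, adjusted p = 0.0946, edgeR). Of the exon bases of Nrg4, 368 (6.06%) are shared with Fbxo22 and 177 (2.91%) with the pseudogene Gm15625, both on the opposite strand, so reads of these genes could have entered its counts.

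Tgfa encodes TGF-alpha, a ligand of EGFR, and had the largest positive log2 fold change of the 10 members (mm10, chr6:86195223-86275719, plus strand, ENSMUSG00000029999). It was at 40.6, 54.0, 37.4 and 36.0 CPM in control and 143.5, 50.6, 138.1 and 89.4 CPM in the mutants. Of the mutants, 3 were above all controls, whereas dcKO_hGFAP-Cre replicate 2 lay within the control range. The means were 42.01 ± 8.25 CPM and 105 ± 43.9 CPM (SD, n = 4), a log2 fold change of 1.33 (SE 0.33, 95% interval 0.55 to 2.11, adjusted p = 0.0174, edgeR). The exact two-sided permutation test on CPM gave p = 0.0571, where 0.0286 is the smallest p that 4 samples against 4 allow. The log2 ratio of mutant to control was 1.04 in lane 5, 1.88 in lane 6 and 1.31 in lane 7, but with the lane as a block the adjusted p was 0.0582, with no filter on low counts 0.0509, without control replicate 3 0.0562 and without control replicate 4 0.055 (edgeR). Without dcKO_hGFAP-Cre replicates 1 and 2 the log2 fold change was 1.43 (adjusted p = 0.00165, edgeR).

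Striatal projection neuron markers moved with Tgfa, 6 of 10 being higher (4 to 9 when each sample was omitted) and none lower, with a median log2 fold change of 1.86. Their summed level was 222 to 322 CPM in control and 901, 456, 942 and 624 CPM in dcKO_hGFAP-Cre replicates 1 to 4, and none was at 0. The mutant lowest in Tgfa, replicate 2, was also the lowest mutant in this list, and dcKO_hGFAP-Cre replicate 4 was the next lowest in both. Replicates 1 and 3 of the mutants were in opposite order. The control highest in Tgfa, replicate 2, was the highest control in the list, while the order of the other controls differed. Ppp1r1b, the marker with the most counts, encoding the phosphoprotein DARPP-32, was at 34.2 to 49.1 CPM in control and 271 to 343 CPM in the mutants. It gave 276 of the 456 CPM in dcKO_hGFAP-Cre replicate 2. The groups did not overlap for 3 of the 10 markers, Ppp1r1b, Tac1 and Isl1, all higher in the mutants. This is near the share over all genes tested, 34.4%. Drd1 and Pde10a were at 7.58 and 82.1 CPM in dcKO_hGFAP-Cre replicate 2, below every control (lowest control 16.7 and 98.8 CPM). Log2 Tgfa exceeded the mean log2 level of the list by 1.86 ± 0.20 in control and by 1.5 ± 0.12 in mutant cortex (SD, n = 4), a difference of -0.36 that was chosen after the values were seen and not tested. Whether striatal tissue in the dissected pieces had a part in the level of Tgfa was not tested.

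Hbegf encodes HB-EGF, which binds EGFR and ErbB4, and lies on chr18:36504927-36515805 of mm10 (minus strand, ENSMUSG00000024486). It was at 21.9, 24.7, 25.3 and 25.3 CPM in control and 17.6, 17.4, 18.01 and 17.6 CPM in the mutants. The mutants were nearly identical to each other and below every control. The means were 24.3 ± 1.64 CPM and 17.6 ± 0.269 CPM (SD, n = 4), a log2 fold change of -0.46 (SE 0.09, 95% interval -0.66 to -0.26, adjusted p = 0.00217, edgeR). The log2 ratios in lanes 5, 6 and 7 were -0.41, -0.49 and -0.52, and without dcKO_hGFAP-Cre replicates 1 and 2 the log2 fold change was -0.45 (adjusted p = 0.0329, edgeR).

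Among the receptors, Erbb4, which signals in response to all 4 neuregulins, was higher in dcKO_hGFAP-Cre cortex (mm10, chr1:68032186-69108059, minus strand, ENSMUSG00000062209). It was at 104.5, 114.4, 99.4 and 89.3 CPM in control and 156.4, 157.0, 106.7 and 171.2 CPM in the mutants. Of the mutants, 3 were above all controls and dcKO_hGFAP-Cre replicate 3 was within the control range. The means were 102 ± 10.5 CPM and 148 ± 28.3 CPM (SD, n = 4), a log2 fold change of 0.54 (SE 0.13, 95% interval 0.25 to 0.83, adjusted p = 0.008, edgeR; exact two-sided permutation p = 0.0571). The log2 ratio was 0.52 in lane 5, 0.10 in lane 6 and 0.94 in lane 7. Without dcKO_hGFAP-Cre replicates 1 and 2 the log2 fold change was 0.45 and the call was lost (adjusted p = 0.111, edgeR).

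Erbb4 was compared with markers of GABAergic interneurons, of which 10 of 12 were higher in dcKO_hGFAP-Cre cortex and none lower, with a median log2 fold change of 0.58. Their summed level was 830 to 867 CPM in control and 1207 to 1346 CPM in the mutants, and none was at 0. Dlx1, a transcription factor of these cells, had a log2 fold change of 0.58, Gad1, a GABA-synthesizing enzyme, 0.87 and Lhx6, a transcription factor of medial ganglionic eminence interneurons, 0.38, and all 3 passed the test. Log2 Erbb4 exceeded the mean log2 level of the list by 0.74 ± 0.18 in control and by 0.71 ± 0.28 in mutant cortex (SD, n = 4). The difference of -0.03 was smaller than the spread within either group (exact two-sided permutation test, p = 0.857, adjusted p = 0.914 over 3 such comparisons), and leaving out each sample in turn gave -0.12 to 0.10.

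Erbb2, the partner receptor, was lower in dcKO_hGFAP-Cre cortex (mm10, chr11:98412470-98437716, plus strand, ENSMUSG00000062312). It was at 7.96, 7.59, 9.56 and 7.98 CPM in control and 6.16, 6.19, 7.51 and 4.29 CPM in the mutants. All mutants were below all controls, although the highest mutant came close to the lowest control. The means were 8.27 ± 0.877 CPM and 6.03 ± 1.32 CPM (SD, n = 4), a log2 fold change of -0.46 (SE 0.17, 95% interval -0.83 to -0.09) with an adjusted p of 0.0495 in edgeR, at the threshold. Fits that each omitted 1 sample gave log2 fold changes of -0.59 to -0.31, and the call held in 1 of 8 fits, that without dcKO_hGFAP-Cre replicate 3 (adjusted p = 0.015). All 8 of these fits kept the negative sign. Without dcKO_hGFAP-Cre replicates 1 and 2 the log2 fold change was -0.50 (adjusted p = 0.157, edgeR).

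Egfr was at 46.3, 37.3, 36.8 and 31.3 CPM in control and 50.5, 45.3, 43.9 and 43.7 CPM in the mutants (mm10, chr11:16752203-16918158, plus strand, ENSMUSG00000020122). The highest control, replicate 1, was above 3 of the 4 mutants, and the other 3 controls were below all mutants. The log2 fold change was 0.27 (SE 0.11, 95% interval 0.03 to 0.52, adjusted p = 0.074, edgeR), which did not pass the test. Without control replicate 1 it was 0.38 and passed (adjusted p = 0.0121), as it did with library totals (0.39, adjusted p = 0.0227) and with the lane as a block (0.28, adjusted p = 0.0436, edgeR).

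Egfr was set beside 10 markers of radial glia and progenitors, of which 2 were lower (1 without control replicate 3 or without dcKO_hGFAP-Cre replicates 1 and 2) and 4 higher, with a median log2 fold change of 0.20. Their summed level was 1539 to 1586 CPM in control and 1319 to 2397 CPM in the mutants, the highest being dcKO_hGFAP-Cre replicate 3, and none was at 0. The 4 higher markers had log2 fold changes of 0.58 to 1.28 with all mutants above all controls, Hopx, a marker of outer radial glia chosen here after its value was seen, being at 1.23. Nes, an intermediate filament of neural stem cells, was among the lower markers, with a log2 fold change of -0.84. Log2 Egfr minus the mean log2 level of the list was -0.38 ± 0.23 in control and -0.33 ± 0.31 in mutants (SD, n = 4), and the difference of 0.05 did not pass the exact permutation test (p = 0.914, adjusted p = 0.914).

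Erbb3 rested on few counts, 22 to 46 per sample (mm10, chr10:128567523-128589652, minus strand, ENSMUSG00000018166). It was at 1.15, 1.53, 1.53 and 0.902 CPM in control and 0.941, 1.14, 0.751 and 0.785 CPM in the mutants. The groups overlapped, with control replicate 4 below 2 of the mutants. The log2 fold change was -0.50 (SE 0.26, 95% interval -1.06 to 0.06, adjusted p = 0.142, edgeR), and at these counts a difference of this size was not separable from the spread between samples.

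Of the oligodendrocyte precursor markers that were set beside Erbb3, 7 of 8 were lower in dcKO_hGFAP-Cre cortex and none higher, with a median log2 fold change of -0.79. Their summed level was 412 to 451 CPM in control and 256 to 334 CPM in the mutants, and none was at 0. Pdgfra, the PDGF receptor of these cells, had a log2 fold change of -0.47 and Sox10, a transcription factor of the whole lineage, -1.5. All 6 markers of committed oligodendrocytes were lower, at a summed level of 79.2 to 103 CPM in control and 21.02 to 33.3 CPM in the mutants. Log2 Erbb3 minus the mean log2 level of the precursor list was -4.71 ± 0.38 in control and -4.33 ± 0.36 in mutants (SD, n = 4), and the difference of 0.38 did not pass the exact permutation test (p = 0.2, adjusted p = 0.6).

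**Figure D3:**
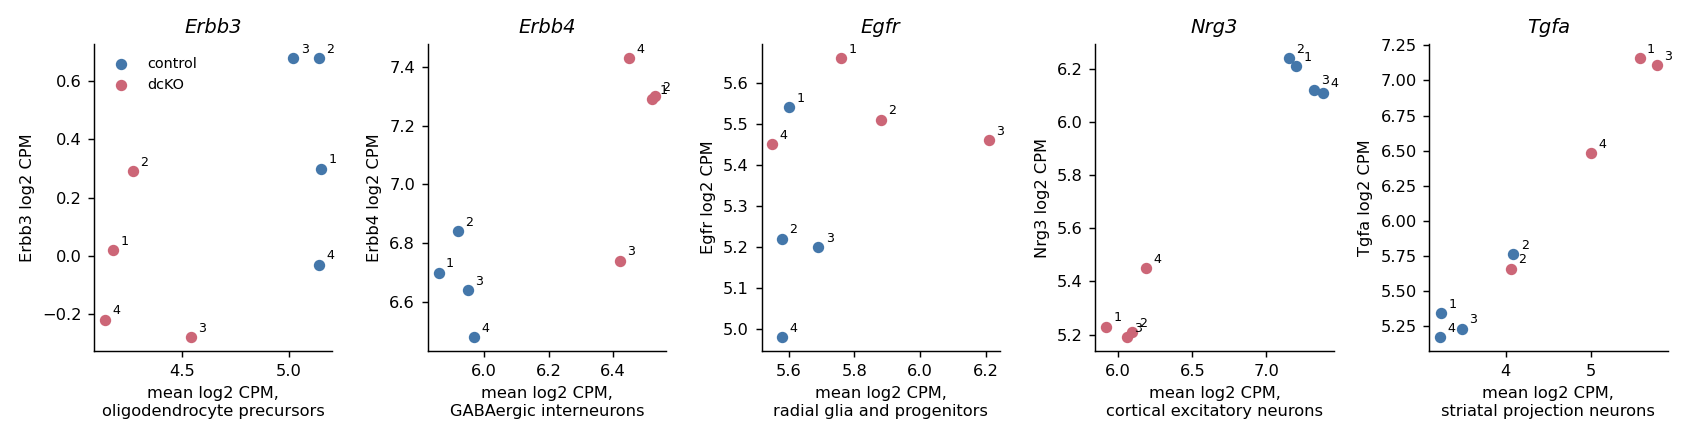
Log2 CPM of Erbb3, Erbb4, Egfr, Nrg3 and Tgfa (vertical axes) against the mean log2 CPM of a cell type marker list (horizontal axes) in the 4 control (blue) and 4 dcKO_hGFAP-Cre (red) cortices, with numbers marking the replicates. The Nrg3 groups stand apart on both axes, and in the Tgfa panel dcKO_hGFAP-Cre replicate 2 lies beside control replicate 2.

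Levels were compared between members per kilobase of exon. Among the receptors the order was Erbb4, Egfr, Erbb2 and Erbb3 in both groups, with means of 8.25 ± 0.847, 3.35 ± 0.55, 1.59 ± 0.168 and 0.212 ± 0.051 CPM per kb in control and 11.97 ± 2.29, 4.05 ± 0.281, 1.16 ± 0.254 and 0.150 ± 0.0298 CPM per kb in mutant cortex (SD, n = 4). The sample ranges of neighbours in this order did not overlap in either group. Among the ligands the control order was Nrg3 at 10.5 ± 0.497, Tgfa at 6.47 ± 1.27, Hbegf at 5.02 ± 0.339, Nrg2 at 2.66 ± 0.436, Nrg1 at 1.39 ± 0.222 and Nrg4 at 0.228 ± 0.0443 CPM per kb. In mutant cortex Tgfa came first at 16.2 ± 6.76 and Nrg3 second at 5.67 ± 0.503 CPM per kb, again with no overlap between neighbours, and the other ligands kept their places.

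The share of each member within its family, computed from counts per kilobase, needs no library scaling. Shares of a family have a common total, so a change in any member also moves the shares of the others. Nrg3 made up 40.8, 39.1, 39.9 and 40.4% of the ligand signal in control and 15.5, 27.2, 15.8 and 22.8% in mutant cortex, so the controls were nearly alike and all mutants were lower. Tgfa made up 23.6, 29.4, 22.7 and 22.2% in control and 62.7, 39.1, 62.9 and 49.0% in mutant cortex, all mutants being higher. Both differences reached the smallest p the design allows (exact two-sided permutation test, p = 0.0286) and an adjusted p of 0.0857 over the 6 ligands. As shares of the same total they are not independent, since a higher Tgfa level lowers the share of Nrg3. The share of Hbegf was 19.2 ± 1.91% in control and 13.1 ± 3.49% in mutant cortex (SD, n = 4, exact permutation p = 0.0571, adjusted p = 0.0857).

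Among the receptors, Erbb4 took 61.6 ± 2.49% in control and 68.6 ± 5.39% in mutant cortex (SD, n = 4, exact permutation p = 0.0857, adjusted p = 0.114). Erbb2 took 11.9 ± 1.74% and 6.90 ± 2.43% (exact permutation p = 0.0571, adjusted p = 0.114, n = 4), and Egfr 24.9 ± 2.54% and 23.6 ± 2.98% (exact permutation p = 0.486, adjusted p = 0.486, n = 4). The share of Erbb3 was 1.58 ± 0.308% in control and 0.871 ± 0.145% in mutant cortex, with all mutants below all controls (exact permutation p = 0.0286, adjusted p = 0.114, n = 4). The CPM of Erbb3 itself overlapped between the groups and did not pass the test (adjusted p = 0.142, edgeR). Its share also depends on the higher level of Erbb4, the largest part of the total. None of the 10 shares passed the adjusted threshold, which 4 samples against 4 could reach only if most shares of a family had the smallest p.

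**Figure D4:**
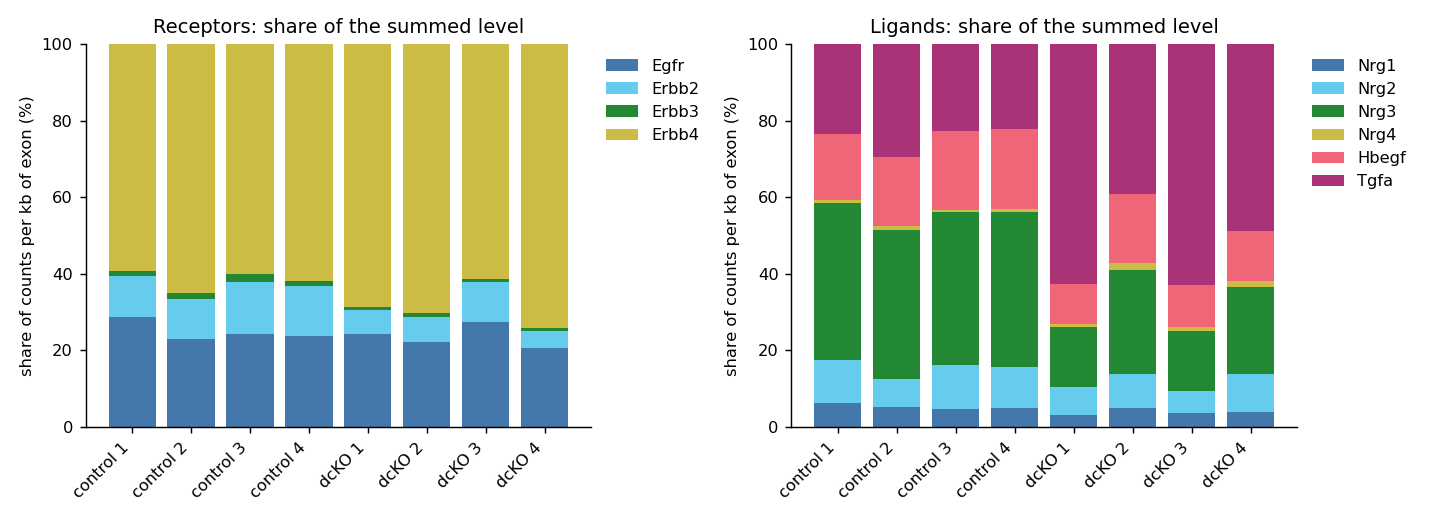
Share of each receptor (left) and each ligand (right) in the summed counts per kilobase of exon of its family, in percent (vertical axes), for each of the 8 samples as a stacked bar. Erbb4 is the largest receptor share in all 8 samples, while the largest ligand share is Nrg3 in the 4 controls and Tgfa in the 4 mutants.

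The start regions of 3 members are shown, chosen by their expression values. Nrg3 had the largest fall, Tgfa the largest rise, and Erbb4 was the called receptor with the highest level. CpG dinucleotides are given in capitals. The regions are the RefSeq promoter sequences of GRCm38.p6, the same assembly as mm10. They are 300 bases long and cover the annotated start, 5′ to 3′ on the strand of the gene. Nrg3 lies at chr14:39473039-39473338 (minus), Tgfa at chr6:86194972-86195271 (plus) and Erbb4 at chr1:69108010-69108309 (minus).
Nrg3: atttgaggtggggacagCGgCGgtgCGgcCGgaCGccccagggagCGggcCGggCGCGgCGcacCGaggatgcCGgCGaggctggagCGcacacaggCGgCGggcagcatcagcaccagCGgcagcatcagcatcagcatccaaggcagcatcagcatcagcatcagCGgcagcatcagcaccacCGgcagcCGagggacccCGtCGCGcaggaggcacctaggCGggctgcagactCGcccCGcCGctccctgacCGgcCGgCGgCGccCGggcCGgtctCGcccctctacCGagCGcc
Tgfa: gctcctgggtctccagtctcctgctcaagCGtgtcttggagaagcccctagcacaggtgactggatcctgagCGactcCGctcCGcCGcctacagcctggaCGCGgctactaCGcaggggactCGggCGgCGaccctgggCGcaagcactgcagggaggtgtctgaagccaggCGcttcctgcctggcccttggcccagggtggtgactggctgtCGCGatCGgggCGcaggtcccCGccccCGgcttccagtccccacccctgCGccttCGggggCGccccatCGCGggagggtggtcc
Erbb4: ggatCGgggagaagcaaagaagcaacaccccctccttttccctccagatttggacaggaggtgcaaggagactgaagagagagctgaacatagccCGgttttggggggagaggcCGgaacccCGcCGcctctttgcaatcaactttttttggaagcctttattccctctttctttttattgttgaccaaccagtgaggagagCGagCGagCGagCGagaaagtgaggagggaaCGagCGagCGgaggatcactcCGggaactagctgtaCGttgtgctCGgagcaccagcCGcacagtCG

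The ratio of observed to expected CpG was 0.869 for Nrg3 (36 CpG), 0.641 for Tgfa (24 CpG) and 0.751 for Erbb4 (17 CpG), beside a median of 0.384 over 32851 promoters of the same length. Entries outside chromosome 18 were present for 6 of the 10 members, the others being Nrg4, Egfr and Erbb2. GGGCGG, the GC box, searched on both strands, matched 2 times in Tgfa and 1 time in Egfr and is present in 35.7% of all promoters. CCGGAAG, an ETS motif, matched 1 time in Egfr (8.86% of all promoters), and neither CAGCTG, an E-box (16.3%), nor TATAAA, the TATA box (13.6%), matched in any of the 6. These matches describe letters in the window.

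Of the other 51 genes of the ErbB pathway that were listed by role, 47 passed the filter, and 21 of these were lower, 5 higher and 21 did not pass the test. Their median log2 fold change was -0.21, beside 0.02 over all genes tested. Lower genes were 21 of 47, beside 18.9% of all genes tested, and higher genes were 5 of 47, beside 18.6%. With library totals in place of TMM 14 were lower and 6 higher, and without dcKO_hGFAP-Cre replicates 1 and 2 there were 13 and 2.

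Of the remaining EGF family ligands, Egf was at 1.597 to 3.50 CPM in control and 1.91 to 2.97 CPM in the mutants (log2 fold change 0.06, adjusted p = 0.871, edgeR), and Areg, Ereg, Epgn and Btc had at most 8 counts in any sample and were not tested. Among 7 genes of ligand shedding 3 were lower and 2 higher. Adam10, a protease that releases several EGF family ligands, had a log2 fold change of -0.51 (156 CPM in control, 110 CPM in mutant cortex), and Adam19, which has been linked to neuregulin shedding, of -0.72 (70.1 and 42.6 CPM). Rhbdf2, a pseudoprotease that carries the sheddase ADAM17 to the cell surface, was higher with a log2 fold change of 1.28 (1.17 and 2.85 CPM), whereas Nrdc, nardilysin, did not pass (-0.06, adjusted p = 0.589, edgeR).

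Among 7 genes of receptor restraint 3 were lower and 1 higher. Lrig1, a transmembrane protein that promotes degradation of ErbB receptors, was at 45.6 to 50.1 CPM in control and at 22.5, 21.7, 43.2 and 20.4 CPM in dcKO_hGFAP-Cre replicates 1 to 4 (log2 fold change -0.83, SE 0.22, adjusted p = 0.0151, edgeR). The mutant nearest to the controls was replicate 3, the library with the high astrocyte markers. Cblb, a ubiquitin ligase of activated receptors, had a log2 fold change of -0.71 and Rnf41, the ubiquitin ligase that controls ErbB3 levels, of -0.44, while Lrig3 was higher by 0.69 on the log2 scale (2.28 and 3.69 CPM).

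Among 13 adaptors and PI3K genes 6 were lower and 2 higher. The regulatory subunits Pik3r1 (312 CPM in control, 168 CPM in mutant cortex, log2 fold change -0.90) and Pik3r2 (300 and 193 CPM, -0.64) had the largest changes of this role. Of 9 ERK cascade genes 3 were lower and none higher.

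Of 10 ERK response and feedback genes, which are commonly induced by growth factor signalling, 6 were lower and none higher, with a median log2 fold change of -0.48. Spry4 and Spred2, inhibitors of the Ras to ERK route, had log2 fold changes of -0.91 (18.1 and 9.64 CPM) and -0.57 (73.2 and 49.3 CPM). Dusp6, an ERK phosphatase, had -0.52 (48.5 and 33.9 CPM), and the ETS transcription factors Etv1 and Etv5 had -0.53 (28.6 and 19.7 CPM) and -0.86 (43.9 and 24.1 CPM). These 5 genes were named because they passed the test in these data with a log2 fold change of at least 0.5 in size. In these 5 genes all mutants were below all controls, which adds no support because they were chosen by this difference. Among the 10 genes of this role, the groups did not overlap for 7, beside 34.4% of all genes tested. These 7 include Spred1, with all mutants above all controls, and Spry2, which did not pass the test. The calls of the 5 named genes held in 8 of 8 fits that left out a sample, fits that share most samples with the test that chose them. Etv4, the other lower gene of this role, had a log2 fold change of -0.44, its groups overlapped, and its call held in 6 of 8 such fits. Spred1, the gene of this role with the most counts, was at 110 to 116 CPM in control and 118 to 125 CPM in the mutants and did not pass the test (log2 fold change 0.09, adjusted p = 0.277, edgeR).

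**Figure D5:**
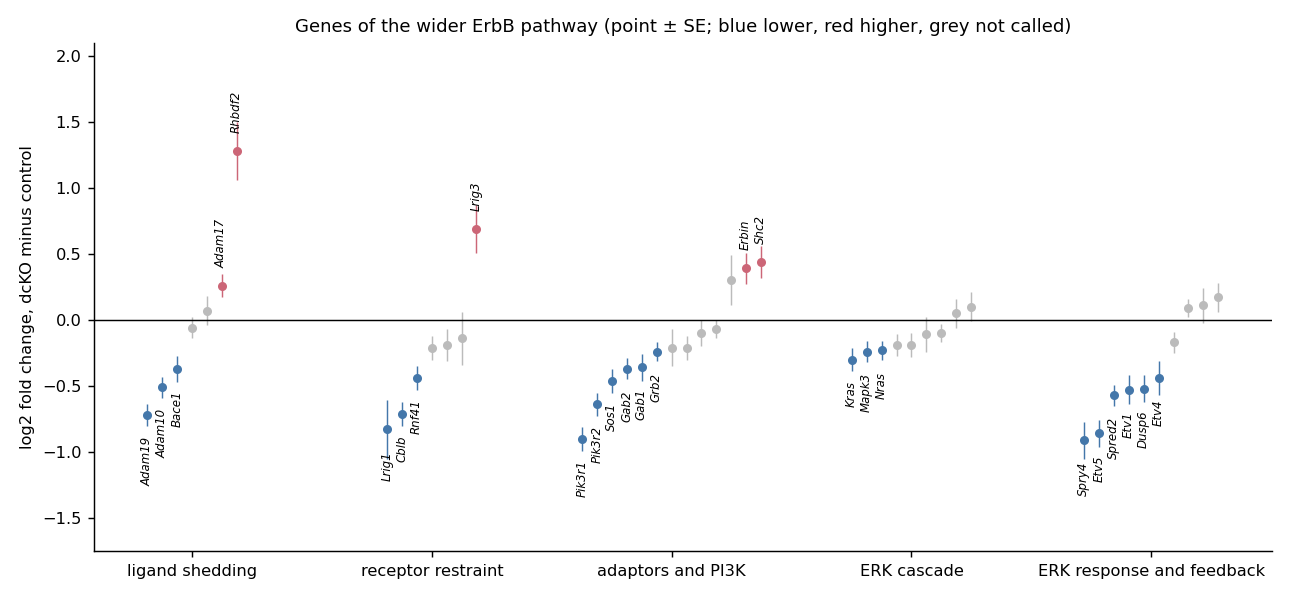
Log2 fold change ± SE (vertical axis, dcKO_hGFAP-Cre against control) of 46 further ErbB pathway genes grouped by role (horizontal axis), blue where lower, red where higher and grey where the test was not passed, with called genes named. Lower genes are found in all 5 roles, and no gene of the ERK cascade or of ERK response and feedback was higher.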

How the data were processed

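RNA was isolated with TRIZOL from the P3 cortex of 4 control and 4 dcKO_hGFAP-Cre mice, and libraries were made with the TruSeq RNA kit. The authors aligned the reads to mm10 and deposited raw counts per gene from featureCounts, with no normalization; the aligner, annotation version and strand setting are not given in the sources used here. Of 48709 identifiers, 48349 matched GENCODE M21, which gave symbols, coordinates and exon lengths.

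Counts were tested with edgeR 4.0.16 in R 4.3.3 (robust quasi-likelihood fit, TMM, default filter with a minimum count of 10, no covariates), with p-values adjusted by the Benjamini-Hochberg method over 16525 genes and a threshold of 0.05. Single values were tested by exact two-sided permutation over the 70 arrangements. Log2 CPM used a prior count of 2. The scripts were first tested on simulated data with 200 changed genes. Of the genes called there, 6.11% were false with edgeR and 5.59% with limma-voom. The false share was 16.6% with DESeq2 and 11.8% in edgeR with a block for the replicate number. Each of these shares was above the threshold of 0.05. The simulated counts used the dispersions that edgeR estimated and held 200 changed genes, whereas 6202 genes passed in the data. The simulation therefore does not rank the methods for these data.

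Samples were grouped by their titles; nothing states which mice were littermates, so p-values measure the spread between these samples. Same-numbered samples of the groups deviated together with correlations of -0.068 to 0.213. A count of 3 corresponds to 0.0906 to 0.148 CPM, and no replicates agreed within counting noise (chi-square per gene at least 9.34). The members, lists and named genes were chosen with earlier results of these data known. Named pathway genes had an adjusted p under 0.05 and a log2 fold change of 0.5 or more in size, or the highest level of their role; named markers had the highest level of their list or were Pdgfra, Sox10, Gad1, Lhx6 or Nes. Some genes that the rule names are left out of the text. Outside the rule, Hopx, Tac1, Isl1, Drd1, Pde10a and Etv4 were named after their values were seen. Alternatives were DESeq2 1.42.0, limma-voom (limma 3.58.1), DESeq2 size factors, library totals, no filter, a minimum of 10 counts per sample, a block for the replicate number or for the lane, each sample left out, other gene lengths for shares, and, added after seeing the data, leaving out dcKO_hGFAP-Cre replicates 1 and 2.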

Additional observations from a re-analysis of the deposited data

Results flagged for a closer look

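In 46 sets of 4 samples, the highest or lowest sample of 2 stood far from the other 3, where chance flags about 1 in 20 (2.3 of 46). Nrg3 was at 43.8 CPM in dcKO_hGFAP-Cre replicate 4 and at 36.6 to 37.3 CPM in the other mutants, and it was still below every control. The Nrg2 share of the ligand signal was 7.22% in control replicate 2 and 10.8 to 11.5% in the other controls.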

How the results depend on the processing

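No member changed direction under any alternative: of 170 values, 147 kept their side of the threshold, 19 lost the call and 4 gained it. Nrg3 and Hbegf were called under all alternatives run. Leaving out each sample in turn gave 2 to 3 lower and 1 to 4 higher members, the 1 occurring without control replicate 3 or 4. Of the pathway genes, 16 to 22 were then lower (16 without dcKO_hGFAP-Cre replicate 1) and 3 to 5 higher (3 without control replicate 4). Without dcKO_hGFAP-Cre replicates 1 and 2, which leaves 2 mutants, 1 member was higher, 13 pathway genes were lower and 2 higher, and 1581 genes were lower and 1388 higher overall. With the replicate number as a block, 3 members were lower and 3 higher, 19 pathway genes were lower and 4 higher, and 2982 genes were lower and 2932 higher overall. Under this block Tgfa lost its call (log2 fold change 1.25, adjusted p = 0.0973, edgeR) and Egfr gained it (0.28, adjusted p = 0.0429, edgeR). The correlations of same-numbered samples were 0.171, -0.068, 0.213 and -0.024, and not every sample correlated best with its own number. The cause of these changes was not tested. Counts of 22 to 46 for Erbb3 and 33 to 85 for Nrg4 limit their precision.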

Other observations

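Microglial markers were higher in dcKO_hGFAP-Cre cortex for 6 of 8 genes and lower for none, with summed levels of 110 to 146 CPM in control and 198 to 237 CPM in mutant cortex, and Csf1r, the receptor for colony stimulating factor, had a log2 fold change of 0.65. Vascular markers were lower for 4 of 9 genes and higher for none, with summed levels of 376 to 445 CPM in control and 253 to 406 CPM in mutant cortex. Their most abundant gene, Rgs5, a pericyte marker, did not pass the test (log2 fold change 0.11, adjusted p = 0.45, edgeR). Astrocyte markers were lower for 2 of 8 genes with all samples, for 7 without dcKO_hGFAP-Cre replicate 3, for 1 without any other single sample, and for 5 with limma-voom or with the lane as a block. Slc1a2, a glutamate transporter, was at 301 CPM in dcKO_hGFAP-Cre replicate 3 and at 156 to 202 CPM in the other mutants. Choroid plexus markers were higher for 3 of 7 genes with all samples, for 6 without dcKO_hGFAP-Cre replicate 4, for 4 without replicate 3, and for 1 without dcKO_hGFAP-Cre replicate 1 or 2 or any single control, while DESeq2 gave 6 and limma-voom 1. Ttr, transthyretin, was at 584 and 1128 CPM in dcKO_hGFAP-Cre replicates 1 and 2 and at 15.8 and 1.72 CPM in replicates 3 and 4. Without dcKO_hGFAP-Cre replicates 1 and 2, 3 microglial and 1 choroid plexus markers were higher, and 4 vascular and 1 astrocyte markers were lower.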
